A study of Mus musculus with 15 samples.

Results

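The collagen chain genes are the genes whose symbol is Col, a number, a and a number, each encoding 1 alpha chain of a collagen. They were followed in whole subcutaneous PDA30364 tumors, each gene through the array probe set that carried its symbol alone and had the highest mean over all arrays. The array measured 42 of them, out of 18193 genes measured this way. Mouse RefSeq lists 44 such genes. Col6a6 and Col28a1 had no probe set of their own and were not analysed here. By the structure of the protein, 11 members were fibrillar, 6 belonged to the basement membrane (type IV) and 9 to the fibril-associated collagens with interrupted triple helices (FACIT), and the other 16 were network-forming, beaded, transmembrane and multiplexin chains.

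PDA30364 is a mouse pancreatic ductal adenocarcinoma line derived from a tumor of a genetically engineered mouse, and it was injected with Matrigel, itself a basement membrane extract, into C57BL/6-Ly5.1 mice aged 6 to 12 weeks. Tumors were taken on day 26 from 4 groups. Combination tumors (n = 4) came from mice that got GDC-0623, an inhibitor of the kinase MEK (MEKi), every day at 30 mg/kg, with an agonist anti-CD40 mIgG1 antibody (Ab). MEKi tumors (n = 3) came from mice given the same dose with control IgG, CD40 Ab tumors (n = 4) from mice given vehicle with the anti-CD40 Ab, and control tumors (n = 4) from mice given vehicle with control IgG. Antibodies were injected on days 3, 5 and 7 of treatment, and once more 1 day ahead of analysis. Each tumor gave 1 Affymetrix mouse array, whose values are log2 signals after robust multi-array average (RMA) normalization. The sample labels also give an animal number. The animal series used below splits the tumors at number 10000, a cut made here, and the labels do not say that it marks a batch.

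Collagens are secreted as trimers of alpha chains wound into a triple helix, after hydroxylation and folding in the endoplasmic reticulum, and are then trimmed and cross-linked outside the cell. Type I, III and V chains form the striated fibrils of connective tissue and are made mainly by fibroblasts, which are abundant in pancreatic cancer. Type IV chains form the sheets under epithelium and vessels, and FACIT chains coat the fibrils. Because pieces of whole tumor were used, fewer cells of a type and less RNA per cell cannot be told apart.

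Against control tumors, the type I, III and V fibril chains Col1a1, Col1a2, Col3a1, Col5a1 and Col5a2 rose both after MEKi and after the combination. In combination against MEKi tumors these 5 chains did not pass (adjusted p from 0.0514 to 0.103). The 6 type IV genes did not pass in any comparison, but so few genes could all fail to pass at the shares of all genes given below. In combination tumors 9 of 42 members rose and 1 fell at an adjusted p under 0.05 (limma, with Benjamini-Hochberg adjusted p over the 45037 probe sets tested), where 10.3% of all 18193 genes rose and 8.72% fell. In MEKi tumors 13 rose and 3 fell, where 10.7% of all genes rose and 10.4% fell. In CD40 Ab tumors 0 members passed in limma, where 1.06% of all genes passed in either direction. At an unadjusted p under 0.05 (limma) there were 6 members, and the share of all genes at that cut was not counted. The rises were in the fibrillar class (5 of 11 in combination and 6 of 11 in MEKi tumors), the FACIT class (2 and 3 of 9) and the other class (2 and 4 of 16), and 0 of 6 basement membrane members rose or fell. The median log2 fold change (FC) of the fibrillar class was 0.18 in combination, 1.09 in MEKi and -0.19 in CD40 Ab tumors, and the median over all genes was -0.04, -0.041 and -0.0025. Of the 42 members, 25 reached a mean log2 signal of at least 6 in some group. Among these brighter members 9 rose and 1 fell in combination tumors and 11 rose and 2 fell in MEKi tumors, where 14.6% and 14.7% of the equally bright genes rose and 12.8% and 15.2% fell. The 3 treated groups were compared with the same 4 control arrays, so their changes are not independent of each other.

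**Figure D1:**
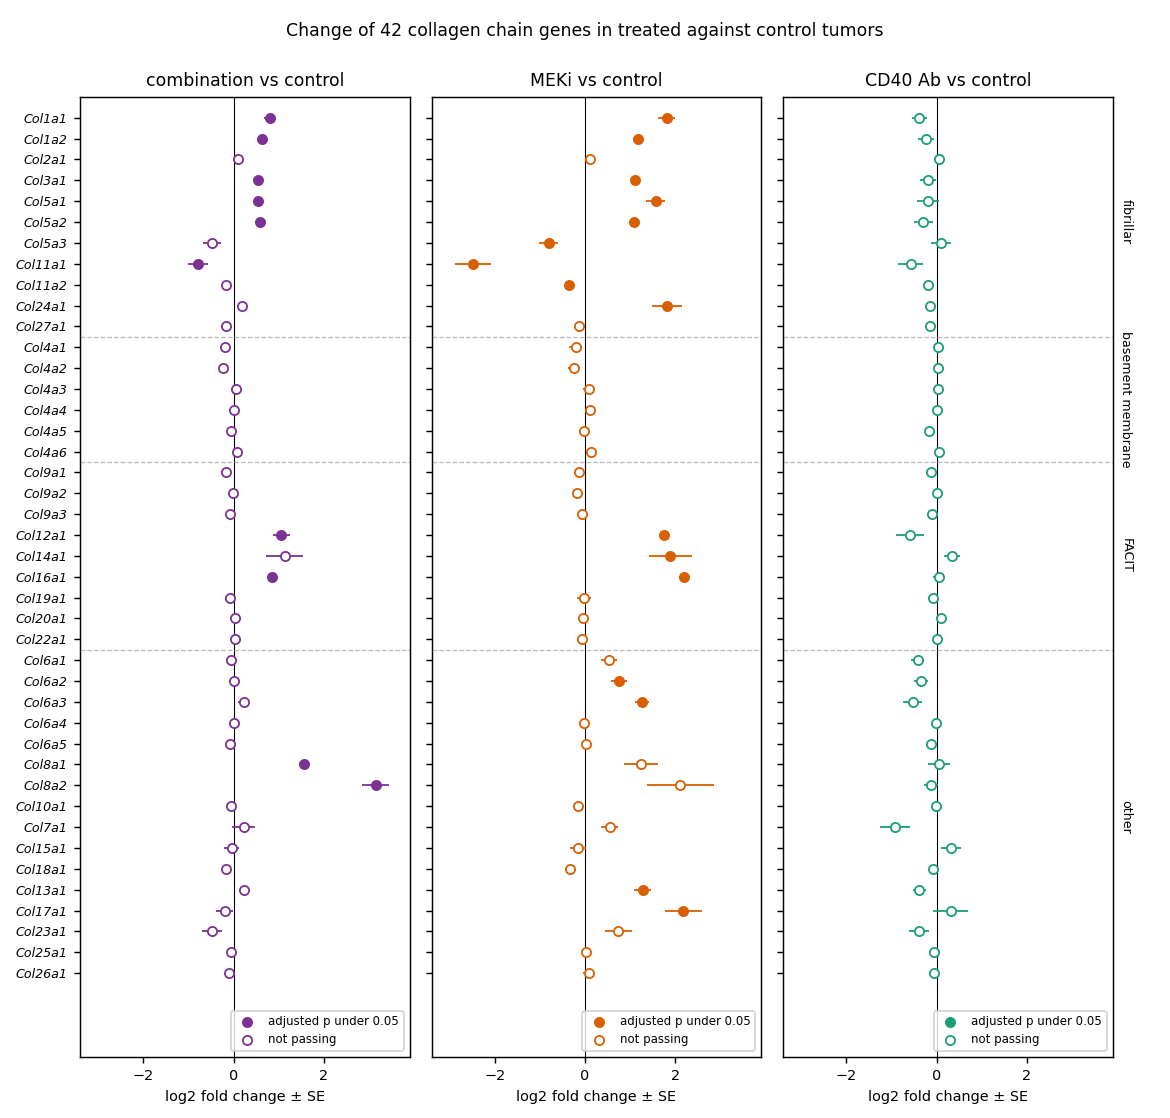
Log2 FC with its standard error (x axis) of each of the 42 collagen chain genes (rows, by class) in combination, MEKi and CD40 Ab tumors against control tumors, with filled points passing an adjusted p of 0.05. Filled points on the right number 9 for the combination and 13 for MEKi, and no point is filled for CD40 Ab or in the basement membrane rows.

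Type I collagen is the main fibril protein of connective tissue. Col1a1, its alpha 1 chain, read 11.10, 10.80, 11.14 and 11.59 in combination tumors, 12.67, 11.81 and 11.99 in MEKi tumors, 10.49, 9.76, 9.91 and 9.69 in CD40 Ab tumors and 10.47, 10.26, 10.36 and 10.29 in control tumors (log2 signal). Every MEKi array lay above every combination array, and every combination array above every CD40 Ab and control array. The gene rose by 0.81 ± 0.14 in combination tumors (log2 FC ± SE, 1.76-fold, adjusted p = 0.00545) and by 1.81 ± 0.19 in MEKi tumors (3.51-fold, adjusted p = 0.000846). The CD40 Ab difference was -0.38 ± 0.16 (adjusted p = 0.445), with 1 CD40 Ab array above all controls and 3 below them.

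Its partner chain Col1a2 read 13.23, 13.01, 13.32 and 13.40 in combination tumors, 13.96, 13.66 and 13.75 in MEKi tumors, 12.92, 11.90, 12.56 and 12.19 in CD40 Ab tumors and 12.63, 12.67, 12.58 and 12.61 in control tumors. It kept the order of Col1a1, with rises of 0.62 ± 0.084 in combination (adjusted p = 0.00158) and 1.17 ± 0.086 in MEKi tumors (adjusted p = 0.000201). Type III collagen runs in the same fibrils, and its gene Col3a1 read 12.69, 12.57, 12.97 and 12.94 in combination tumors, 13.60, 13.21 and 13.29 in MEKi tumors, 12.69, 11.79, 11.85 and 11.93 in CD40 Ab tumors and 12.36, 12.30, 12.22 and 12.14 in control tumors. Col3a1 rose by 0.54 ± 0.099 (adjusted p = 0.00677) and 1.11 ± 0.11 (adjusted p = 0.000651) in combination and MEKi tumors. The first CD40 Ab array stood above the other 3 CD40 Ab arrays for all these genes.

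The 250 bases before the start sites of Col1a2, Col3a1 and, from the class described later, Col8a2 are shown to set the genes that rose beside the type IV pair that did not (RefSeq, build GRCm38.p6). They lie at chr6:4505368-4505617, chr1:45311288-45311537 and chr4:126286544-126286793, all on the plus strand, and are printed 5′ to 3′. Capitals mark the CCAAT box, the GC box (GGGCGG), the TATA box (searched as TATAAA) and the AP-1 type site (searched as TGANTCA), each looked for on both strands. Matches of different motifs did not overlap here, and the last GC boxes of Col8a2 share bases and appear as 1 stretch.
Col1a2: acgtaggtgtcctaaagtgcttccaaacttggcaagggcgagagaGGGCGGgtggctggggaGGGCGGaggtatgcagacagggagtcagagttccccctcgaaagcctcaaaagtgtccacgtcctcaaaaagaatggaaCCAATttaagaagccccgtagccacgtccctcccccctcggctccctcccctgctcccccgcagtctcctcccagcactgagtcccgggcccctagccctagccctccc
Col3a1: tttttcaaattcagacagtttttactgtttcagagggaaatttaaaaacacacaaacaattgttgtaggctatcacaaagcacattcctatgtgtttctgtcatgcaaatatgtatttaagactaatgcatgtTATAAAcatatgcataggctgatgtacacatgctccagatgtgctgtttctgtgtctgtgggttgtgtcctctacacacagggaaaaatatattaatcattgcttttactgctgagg
Col8a2: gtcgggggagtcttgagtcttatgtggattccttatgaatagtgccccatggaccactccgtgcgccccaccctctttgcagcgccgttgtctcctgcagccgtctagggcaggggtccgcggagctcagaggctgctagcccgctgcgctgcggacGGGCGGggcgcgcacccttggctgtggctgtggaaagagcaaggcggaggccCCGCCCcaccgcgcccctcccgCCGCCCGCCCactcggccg
Col1a2 held a CCAAT 109 bases before its start and GGGCGG at 205 and 188 bases, Col3a1 held 1 TATAAA at 117 bases, and Col8a2 held GGGCGG on either strand at 93, 41, 19 and 15 bases. In windows from 250 bases before to 50 after the start, 33 of 42 members matched the table, and no window was used for Col1a1, Col2a1, Col4a3, Col5a2, Col9a3, Col12a1, Col14a1, Col22a1 and Col26a1. GGGCGG was in 63.6% of the member windows and 35.9% of all 27025 gene windows, CCAAT in 36.4% and 37.9%, TATAAA in 15.2% and 14.2%, and TGANTCA in 3.03% and 7.93%. These are matches of letters and no site was tested.

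Type V collagen starts fibrils and limits their width. Col5a1 rose by 0.55 ± 0.1 in combination (adjusted p = 0.00636) and by 1.56 ± 0.22 in MEKi tumors (adjusted p = 0.00303), and Col5a2 rose by 0.58 ± 0.095 (adjusted p = 0.00387) and 1.09 ± 0.11 (adjusted p = 0.000901). The third chain, Col5a3, went the other way and fell by 0.81 in MEKi tumors (SE 0.2, adjusted p = 0.0265), with a combination difference of -0.47 ± 0.2 (adjusted p = 0.16). The lowest control array met the highest MEKi array at 7.93, the call was lost when any of 5 of the 7 arrays was left out (adjusted p up to 0.0887) and with the animal series as a covariate, and the difference was 0.04 with skin and muscle marker levels as covariates. In a fit of all 15 arrays the combination rises of Col3a1, Col5a1 and Col5a2 and the fall of Col11a1 no longer passed (adjusted p = 0.0533, 0.197, 0.072 and 0.186).

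Col11a1 encodes a minor fibrillar chain best known from cartilage and from the stroma of carcinomas. It read 6.08, 5.95, 5.42 and 6.35 in combination tumors, 5.31, 3.51 and 3.93 in MEKi tumors, 6.99, 5.96, 6.07 and 5.64 in CD40 Ab tumors and 6.99, 7.12, 6.53 and 6.31 in control tumors. MEKi arrays were lowest, and the highest combination array overlapped the lowest control array. Col11a1 fell by 2.49 in MEKi (SE 0.4, adjusted p = 0.00539) and by 0.79 in combination tumors (SE 0.22, adjusted p = 0.0432), and the combination call was lost when any of 6 of the 8 arrays was left out (adjusted p up to 0.118). Acan, the main cartilage proteoglycan, also fell, by 1.54 in combination (adjusted p = 0.00165) and by 2.69 in MEKi tumors (adjusted p = 0.0039), and was the only one of 10 cartilage markers to pass in either comparison.

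The remaining fibrillar members were dim or did not pass in both comparisons. Col24a1 read 3.09, 3.01, 2.82 and 3.20 in combination tumors, 5.61, 4.14 and 4.22 in MEKi tumors, 2.84, 2.52, 2.85 and 2.61 in CD40 Ab tumors and 2.86, 3.07, 2.77 and 2.69 in control tumors. Only the MEKi arrays stood apart, with a rise of 1.81 ± 0.33 (adjusted p = 0.00855) in a gene whose group means all lay under 5.2, the median over all probe sets. Col11a2, also under that median, fell by 0.35 in MEKi tumors (adjusted p = 0.0455), a call lost when any of 5 of the 7 arrays was left out (adjusted p up to 0.118). With the animal series as a covariate 0 of the 3 MEKi falls, that of Col11a1 included, passed. Col2a1, the cartilage fibril chain, and Col27a1 had differences between -0.17 and 0.11 in combination and MEKi tumors and did not pass.

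**Figure D2:**
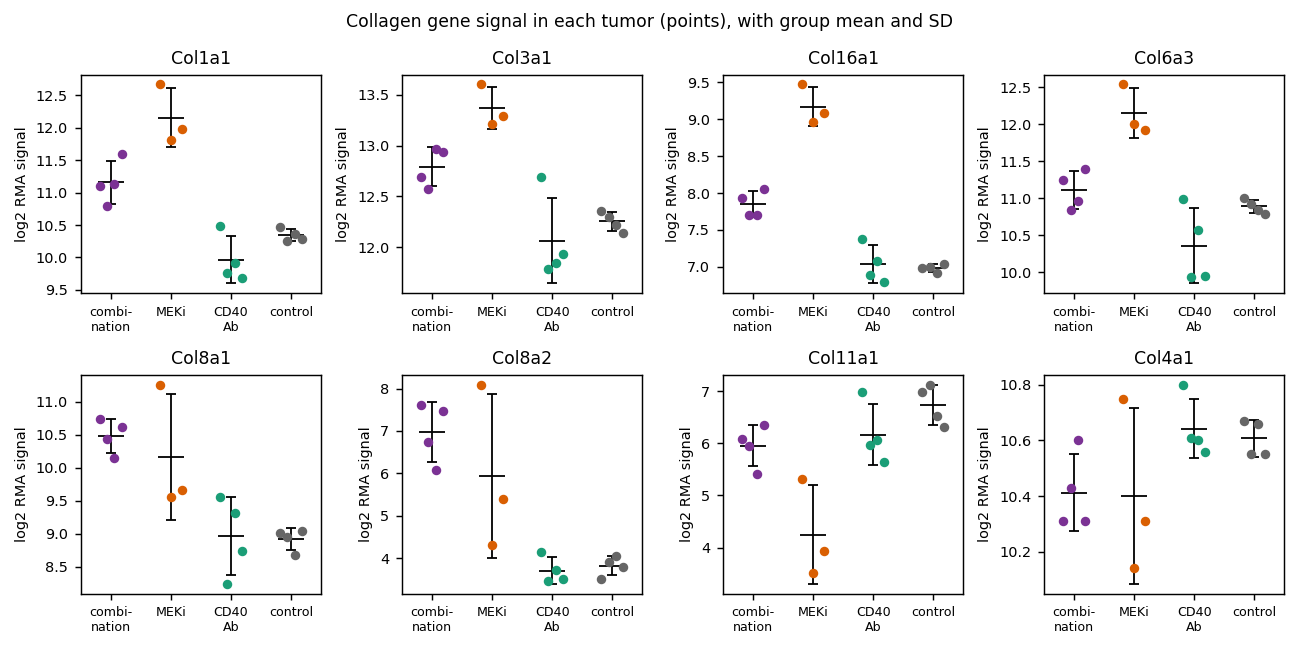
Log2 RMA signal (y axis, not from 0) of 8 collagen genes in each tumor (points) by group (x axis), with bars for the mean and SD. For Col1a1, Col3a1 and Col16a1 the 3 MEKi points lie highest and the 4 combination points above control. Col8a2 is between 6.07 and 7.62 in combination tumors and at most 4.06 in control tumors, Col11a1 is lowest in MEKi tumors, and Col4a1 overlaps between groups.

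Among the FACIT chains, Col12a1, Col14a1 and Col16a1 carried all passing changes. Col16a1, the alpha 1 chain of type XVI collagen, read 7.93, 7.70, 7.70 and 8.06 in combination tumors, 9.47, 8.96 and 9.08 in MEKi tumors, 7.38, 6.89, 7.08 and 6.79 in CD40 Ab tumors and 6.99, 7.00, 6.91 and 7.04 in control tumors. The MEKi arrays were above the combination arrays and these above the rest without overlap. Col16a1 rose by 0.86 ± 0.089 in combination (1.82-fold, adjusted p = 0.000449) and by 2.19 ± 0.12 in MEKi tumors (4.55-fold, adjusted p = 6.18e-05).

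Col12a1, whose protein links fibrils in dense connective tissue, read 11.47, 11.15, 10.58 and 11.41 in combination tumors, 11.80, 11.91 and 11.82 in MEKi tumors, 10.35, 8.77, 10.02 and 8.89 in CD40 Ab tumors and 10.08, 10.07, 9.92 and 10.31 in control tumors. It rose by 1.06 ± 0.18 (adjusted p = 0.00461) and 1.75 ± 0.099 (adjusted p = 6.94e-05) in combination and MEKi tumors, while the CD40 Ab arrays spread over more than the whole control range. Col14a1, a fibril-associated chain of skin and tendon, read 6.91, 6.58, 8.65 and 6.49 in combination tumors, 9.25, 6.87 and 7.65 in MEKi tumors, 6.88, 6.01, 6.21 and 6.38 in CD40 Ab tumors and 5.92, 5.88, 6.24 and 6.08 in control tumors. It rose in MEKi tumors (1.89 ± 0.47, adjusted p = 0.0295), with the call lost when any of 5 of the 7 arrays was left out. In combination tumors every array was above every control array, and the difference of 1.13 ± 0.41 did not pass (adjusted p = 0.102). The other 6 FACIT members, Col9a1, Col9a2, Col9a3, Col19a1, Col20a1 and Col22a1, had differences between -0.17 and 0.04 in combination and MEKi tumors and stayed below 6 in every group.

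Type VIII collagen forms hexagonal networks under the endothelium and in the cornea, and its chains had the largest rises of all members in combination tumors. Col8a1 read 10.74, 10.44, 10.15 and 10.62 in combination tumors, 11.26, 9.56 and 9.66 in MEKi tumors, 9.56, 8.24, 9.32 and 8.74 in CD40 Ab tumors and 9.01, 8.95, 8.67 and 9.04 in control tumors. Col8a2 read 7.62, 6.74, 6.07 and 7.46 in combination tumors, 8.09, 4.32 and 5.40 in MEKi tumors, 4.14, 3.45, 3.72 and 3.52 in CD40 Ab tumors and 3.52, 3.91, 4.06 and 3.80 in control tumors. The combination arrays lay above all CD40 Ab and control arrays for each gene. Col8a1 rose by 1.57 ± 0.13 (2.97-fold, adjusted p = 0.000178) and Col8a2 by 3.15 ± 0.3 (8.88-fold, adjusted p = 0.000327). The control and CD40 Ab means of Col8a2 lay under 5.2, the median of all probe sets, and whether they were above background was not tested, so its folds are those of the signals only. In MEKi tumors the differences of 1.24 ± 0.37 and 2.11 ± 0.74 did not pass (adjusted p = 0.0583 and 0.0945), and the first MEKi array was far above the other 2 for each gene. A dimmer Col8a1 probe set did pass in MEKi tumors (1.35, adjusted p = 0.0385).

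Type VI collagen makes beaded filaments around cells from Col6a1, Col6a2 and Col6a3 chains. Col6a3 read 11.25, 10.84, 10.96 and 11.40 in combination tumors, 12.54, 12.01 and 11.92 in MEKi tumors, 10.99, 9.94, 10.57 and 9.95 in CD40 Ab tumors and 11, 10.93, 10.85 and 10.79 in control tumors. Col6a1 read 11.28, 11.04, 11.31 and 11.57 in combination tumors, 12.37, 11.65 and 11.61 in MEKi tumors, 11.37, 10.75, 10.96 and 10.63 in CD40 Ab tumors and 11.46, 11.33, 11.37 and 11.23 in control tumors. Only the MEKi arrays lay above all control arrays for both genes. Col6a3 rose by 1.26 ± 0.15 in MEKi tumors (adjusted p = 0.00139) and Col6a2 by 0.75 ± 0.18 (adjusted p = 0.024, lost without any of 4 of the 7 arrays), while Col6a1 differed by 0.53 ± 0.18 (adjusted p = 0.0833). In combination tumors the differences were -0.05 ± 0.11, 0.02 ± 0.095 and 0.22 ± 0.12 for Col6a1, Col6a2 and Col6a3, and in CD40 Ab tumors they were -0.42 ± 0.14, -0.34 ± 0.16 and -0.53 ± 0.21, and none of these passed. Col6a1 had the smallest adjusted p of the class other in CD40 Ab tumors, at 0.324.

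Of the transmembrane collagens, Col13a1, a component of the neuromuscular junction, rose by 1.28 ± 0.19 in MEKi tumors (adjusted p = 0.00352). Col17a1, a hemidesmosome protein of basal keratinocytes, read 3.16, 3.16, 2.89 and 2.81 in combination tumors, 4.36, 6.21 and 5.54 in MEKi tumors, 2.95, 3.19, 4.86 and 3.05 in CD40 Ab tumors and 3.08, 2.66, 3.56 and 3.5 in control tumors. It rose by 2.17 ± 0.41 in MEKi tumors (4.5-fold, adjusted p = 0.0101), and 1 CD40 Ab array was above the lowest MEKi array. The control, combination and CD40 Ab means of Col17a1 lay under 5.2, the median of all probe sets. Whether they were above background was not tested, so its changes here and below are those of the signals only. Col7a1, the anchoring fibril chain of skin, was at 9.37, 8.75, 8.35 and 9.64 in combination tumors, 9.31, 9.73 and 9.03 in MEKi tumors, 8.18, 7.06, 8.86 and 7.45 in CD40 Ab tumors and 8.66, 8.78, 8.63 and 9.17 in control tumors, and passed in no comparison. Col23a1 differed by 0.74 ± 0.29 in MEKi tumors (adjusted p = 0.123). The multiplexins Col15a1 and Col18a1, found in basement membrane zones, differed by -0.04 and -0.16 in combination and by -0.16 and -0.33 in MEKi tumors without passing. The last 5, Col6a4, Col6a5, Col10a1, Col25a1 and Col26a1, had differences between -0.16 and 0.08 in combination and MEKi tumors.

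The type IV genes did not pass in any comparison. Col4a1 read 10.31, 10.43, 10.60 and 10.31 in combination tumors, 10.75, 10.14 and 10.31 in MEKi tumors, 10.80, 10.61, 10.60 and 10.56 in CD40 Ab tumors and 10.67, 10.55, 10.66 and 10.55 in control tumors. Its partner Col4a2 read 9.34, 9.49, 9.61 and 9.21 in combination tumors, 9.76, 9.20 and 9.27 in MEKi tumors, 9.88, 9.66, 9.62 and 9.58 in CD40 Ab tumors and 9.68, 9.65, 9.68 and 9.62 in control tumors. The arrays of each gene overlapped between MEKi and control tumors, and all combination arrays of Col4a2 lay below all control arrays, by small amounts. The differences were -0.19 ± 0.078 (adjusted p = 0.133) and -0.24 ± 0.086 (adjusted p = 0.0903) in combination tumors and -0.21 ± 0.14 (adjusted p = 0.35) and -0.25 ± 0.13 (adjusted p = 0.245) in MEKi tumors.

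Of the other type IV chains, Col4a5, found in kidney and other specialized membranes, read 7.62, 7.40, 7.66 and 7.91 in combination tumors, 7.92, 7.65 and 7.43 in MEKi tumors, 7.60, 7.27, 7.74 and 7.50 in CD40 Ab tumors and 7.78, 7.70, 7.69 and 7.63 in control tumors. Col4a4 read 3.35, 3.07, 3.11 and 3.57 in combination tumors, 3.55, 3.34 and 3.26 in MEKi tumors, 3.21, 3.49, 3.19 and 3.29 in CD40 Ab tumors and 3.23, 3.38, 3.20 and 3.28 in control tumors. The groups of both genes overlapped. Col4a3, Col4a4 and Col4a6 were below the median of all probe sets in every group.

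Col4a1 and Col4a2 start 21 bases apart on opposite strands of chromosome 8, and the 250 bases before each start are shown because each window runs into the other gene. Col4a1 is read on the minus strand from chr8:11312827-11313076 and Col4a2 on the plus strand from chr8:11312555-11312804 (GRCm38.p6, RefSeq), with capitals as above.
Col4a1: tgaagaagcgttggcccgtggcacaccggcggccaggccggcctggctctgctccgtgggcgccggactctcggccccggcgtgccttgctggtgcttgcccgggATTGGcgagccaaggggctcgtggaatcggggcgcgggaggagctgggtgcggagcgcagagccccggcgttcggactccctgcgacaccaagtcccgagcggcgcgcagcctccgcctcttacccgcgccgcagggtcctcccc
Col4a2: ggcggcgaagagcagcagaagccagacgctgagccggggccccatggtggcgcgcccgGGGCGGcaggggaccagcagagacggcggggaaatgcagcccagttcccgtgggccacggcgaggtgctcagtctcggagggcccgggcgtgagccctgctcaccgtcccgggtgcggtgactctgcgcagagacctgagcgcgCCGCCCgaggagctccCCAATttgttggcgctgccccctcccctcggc
Col4a1 held CCAAT on the opposite strand 145 bases before its start, printed as ATTGG. Col4a2 held CCAAT at 32 bases and GGGCGG at 192 bases, and on the opposite strand at 48 bases. The within-array difference between the pair moved by 0.05 in combination, 0.04 in MEKi and 0.01 in CD40 Ab tumors against control (log2). Of the other partner chains, Col1a1 minus Col1a2 differed by 0.64 in MEKi tumors against control, Col5a1 minus Col5a2 by 0.47, and Col6a1 minus Col6a3 by -0.74. Col6a1 minus Col6a2 differed by -0.22 in MEKi and by -0.08 in CD40 Ab tumors. In combination tumors Col6a1 minus Col6a3 differed by -0.27 and Col8a1 minus Col8a2 by -1.58. Each of these had p = 0.0286 by an exact two-sided permutation test, the smallest p that so few arrays allow. Over the 18 such tests 0 passed after adjustment (smallest adjusted p = 0.0735, by the exact permutation test), and 7 had an unadjusted p under 0.05. Since p could not go under 0.0286 in this test, adjustment could be passed only if most of the 18 reached that floor. The 0 therefore does not show that partner chains changed equally. The sizes of the Col1 and Col5 differences varied with the probe sets compared. In MEKi tumors a dimmer Col1a2 probe set differed from control by 1.77, against 1.81 for the brightest Col1a1 probe set. A dimmer Col1a1 probe set also differed by more than the brightest one, as given in the next paragraph. A dimmer Col5a2 probe set differed by 1.81, against 1.56 for the brightest Col5a1 probe set. With the mean over probe sets, Col1a1 minus Col1a2 differed by 0.81 and Col5a1 minus Col5a2 by 0.32 in MEKi tumors. Each had p = 0.0286 by the exact permutation test (adjusted p = 0.0735). No test compared 1 pair with another.

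The probe sets of the main fibrillar genes gave the same direction but different sizes. In MEKi tumors Col3a1 differed from control by 1.11 in the brightest probe set and by 2.51 in a dimmer one, Col1a2 by 1.17 and 1.77, Col5a2 by 1.09 and 1.81, and Col1a1 by 1.81 and 2.44. In combination tumors the same pairs of values were 0.54 and 0.90 for Col3a1, 0.62 and 0.84 for Col1a2, 0.58 and 0.60 for Col5a2, and 0.81 and 1.12 for Col1a1. The brightest Col1a2 probe set reached 13.96, the highest value on any array, and whether such signals were near saturation was not tested. Col25a1 disagreed between probe sets: a dim one rose by 1.77 in MEKi tumors (adjusted p = 0.0299), while the brightest differed by 0.03 (adjusted p = 0.871).

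**Figure D3:**
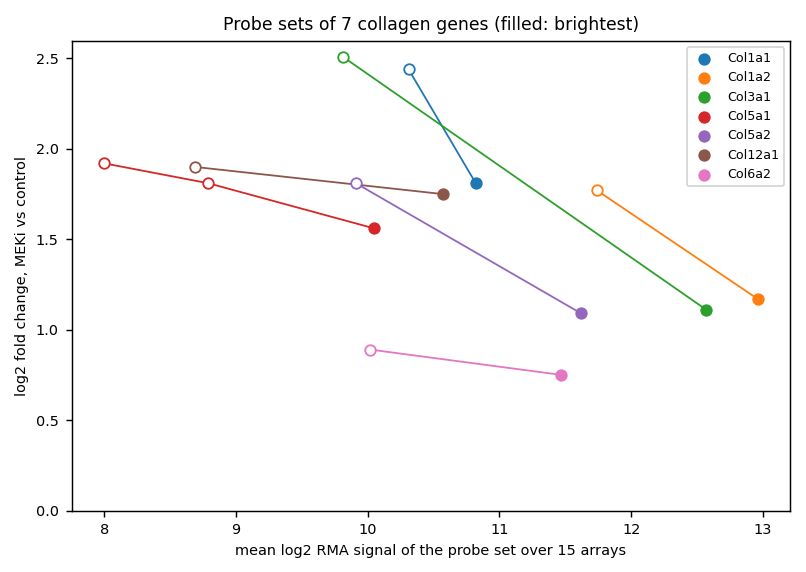
Log2 FC of MEKi against control tumors (y axis) against the mean log2 RMA signal over 15 arrays (x axis) for each probe set with a mean of at least 6 of 7 collagen genes, joined by gene, with the brightest filled. The brightest probe set of each gene has the smallest change of that gene, from 1.11 against 2.51 for Col3a1 to 1.75 against 1.90 for Col12a1.

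The comparison of combination with MEKi tumors asks what CD40 Ab added to MEKi, and here 0 members rose and 5 fell, where 1.38% of all genes rose and 2.65% fell. Col16a1 fell by 1.32 (SE 0.15, adjusted p = 0.00462), Col17a1 by 2.37 (SE 0.37, adjusted p = 0.0197), Col13a1 by 1.06 (SE 0.17, adjusted p = 0.0215), Col6a3 by 1.04 (SE 0.19, adjusted p = 0.0291) and Col24a1 by 1.63 (SE 0.33, adjusted p = 0.045). The calls of all but Col16a1 were lost when some single arrays were left out. For 14 members every combination array was below every MEKi array, where this held for 10.8% of all genes. They included Col1a1, with a difference of -1 ± 0.24 (adjusted p = 0.073), and Col1a2 with -0.55 ± 0.12 (adjusted p = 0.0514). Col4a1 and Col4a2 differed by 0.01 ± 0.15 and 0.0 ± 0.16. All 4 combination tumors carried animal numbers under 10000 and all 3 MEKi tumors numbers from 10000 on, so animal series and CD40 Ab cannot be told apart in this comparison.

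**Figure D4:**
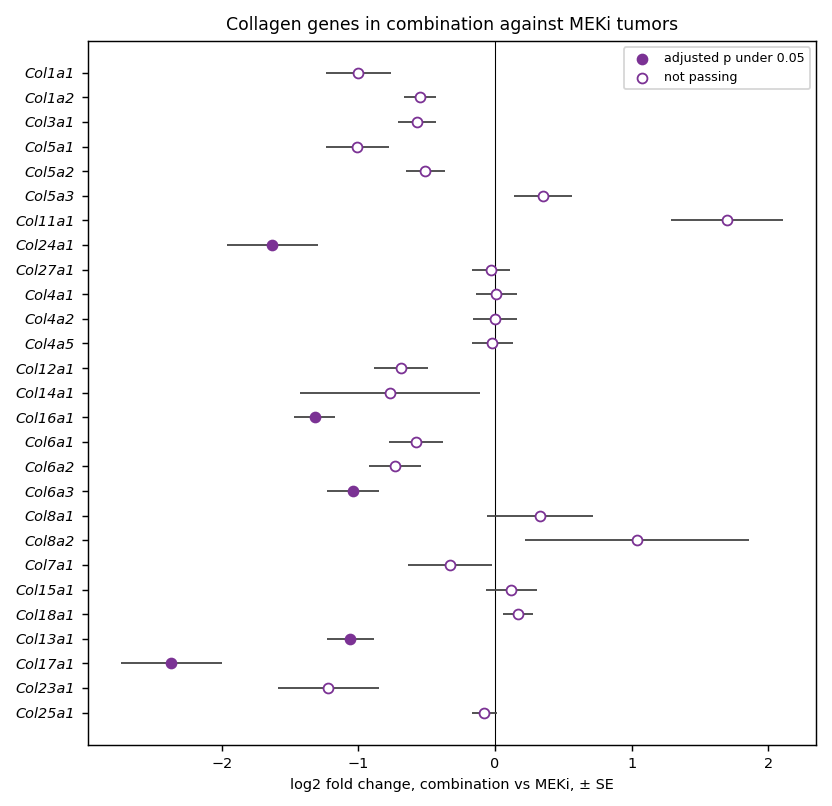
Log2 FC with its standard error (x axis) of combination against MEKi tumors for the 25 collagen genes with a mean of at least 6 in some group plus Col24a1 and Col17a1 (rows), with filled points passing an adjusted p of 0.05. The 5 filled points lie left of 0, from -1.04 for Col6a3 to -2.37 for Col17a1.

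The comparison of combination with CD40 Ab tumors asks what MEKi added. In limma 7 members rose and 0 fell, where 3.69% of all genes rose and 2.52% fell. At an unadjusted p under 0.05 (limma) there were 17 members, again without a count over all genes. The 7 were Col1a1 (1.2 ± 0.2, adjusted p = 0.014), Col1a2, Col12a1 (1.64 ± 0.36), Col16a1 (0.81 ± 0.14, adjusted p = 0.0136), Col8a1 (1.52 ± 0.26, adjusted p = 0.0156), Col8a2 (3.26 ± 0.31, 9.61-fold, adjusted p = 0.00163) and Col13a1 (0.6 ± 0.13). The count was 11 without the first CD40 Ab array, which was high in fibroblast markers, and 4 without combination array 1, 2 or 4. Of the 7 calls 4 were kept with the replicate number as a block, 2 with the animal series as a covariate, 1 within the series under 10000 and 0 with skin and muscle marker levels as covariates, and that of Col1a2 was lost when any of 7 of the 8 arrays was left out. Col3a1, with 0.73 ± 0.19, did not pass with it (adjusted p = 0.066).

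The interaction, which is the effect of CD40 Ab under MEKi minus its effect under vehicle, passed for 4 members, 1 up and 3 down, where 2% and 2.56% of all genes passed. It was -1.37 ± 0.19 for Col16a1 (adjusted p = 0.00221), -2.68 ± 0.61 for Col17a1 (adjusted p = 0.0282), -1.48 ± 0.35 for Col24a1 (adjusted p = 0.0357) and 2.27 ± 0.53 for Col11a1 (adjusted p = 0.0326). For Col1a1 and Col1a2 it was -0.62 ± 0.3 (adjusted p = 0.311) and -0.32 ± 0.24 (adjusted p = 0.551), and for Col8a2 it was 1.15 ± 0.85 (adjusted p = 0.537). When each of the 15 arrays was left out, the call was lost 11 times for Col24a1, 10 times for Col11a1, 4 times for Col17a1 and 0 times for Col16a1. Of the 4 calls that of Col16a1 alone was kept with the animal series as a covariate and that of Col24a1 alone with skin and muscle marker levels as covariates, and the series divides all combination from all MEKi arrays.

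Some fibroblast, smooth muscle and pericyte markers also rose in combination and MEKi tumors, where 10.3% and 10.7% of all genes rose. The mean log2 level of 21 non-collagen fibroblast markers was 9.15 to 9.62 in combination, 9.61 to 10.91 in MEKi, 8.08 to 9.12 in CD40 Ab and 8.43 to 8.67 in control tumors. Of these markers 8 rose in combination tumors, such as Ogn (3.46), Dpt (2.30) and Thbs2 (1.27), and 14 rose in MEKi tumors, such as Ogn (5.02), Dpt (4.47) and Cthrc1 (2.87). In combination against MEKi tumors 4 fell, with Dpt at -2.17, Lum at -2.12 and Dcn at -1.90. Of 10 smooth muscle and pericyte markers 6 rose in combination and 5 in MEKi tumors, with Actg2 and Tagln, smooth muscle contractile genes, at 2.08 and 1.79 in combination tumors. Their mean level was 7.05 to 7.28 in combination, 6.70 to 7.03 in MEKi, 6.04 to 6.83 in CD40 Ab and 6.23 to 6.38 in control tumors.

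Skin and muscle markers also differed between groups. The mean level of 14 skin and hair keratinocyte markers was 4.34 to 5.00 in combination, 6.49 to 7.41 in MEKi, 4.35 to 5.64 in CD40 Ab and 4.34 to 6.00 in control tumors, and 8 of 14 rose in MEKi tumors. The CD40 Ab array with the highest skin level was also the one highest for Col17a1. The mean level of 20 skeletal muscle markers was 7.59 to 9.03 in combination, 7.27 to 9.93 in MEKi, 4.46 to 6.19 in CD40 Ab and 4.46 to 6.58 in control tumors, and 18 of 20 rose in combination and 5 of 20 in MEKi tumors. The first MEKi array was highest in muscle and fibroblast markers and had the highest Col8a1 and Col8a2 signals of the MEKi arrays. Without it, 16 members rose and 4 fell against control.

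**Figure D5:**
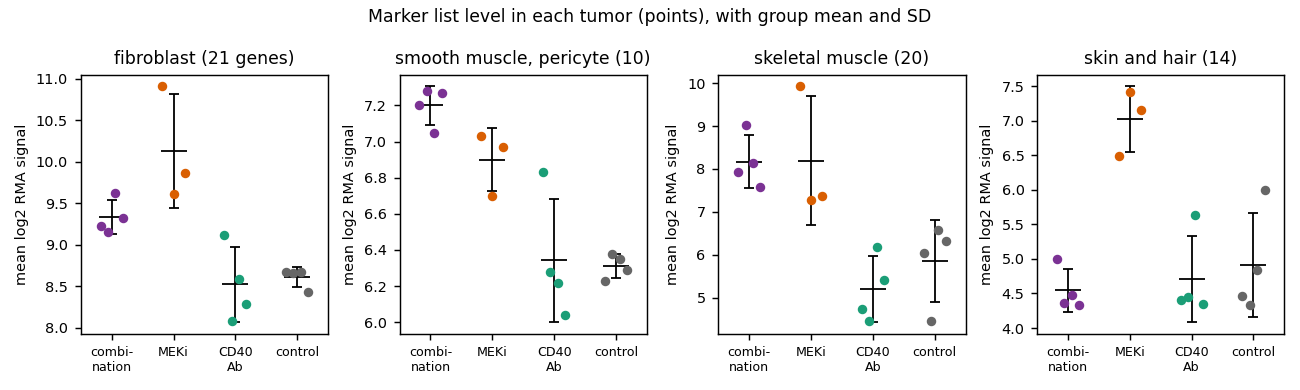
Mean log2 RMA signal (y axis, not from 0) of 4 marker lists in each tumor (points) by group (x axis), with bars for the mean and SD. Fibroblast and muscle markers were higher in combination and MEKi tumors than in most other tumors, and skin and hair markers in the 3 MEKi tumors, from 6.49 to 7.41.

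With the skin and muscle levels as covariates over all 15 arrays, 0 of the 9 combination rises and 4 of the 13 MEKi rises passed, where 1.89% and 1.17% of all genes still rose. The 4 were Col1a1 (2.01, adjusted p = 0.0369), Col3a1 (1.52, adjusted p = 0.0469), Col24a1 (1.89, adjusted p = 0.0368) and Col16a1 (2.17, adjusted p = 0.00569), while Col17a1 was at 0.29 (adjusted p = 0.87). In combination tumors Col8a2 was at 1.73 (adjusted p = 0.304), Col16a1 at 0.75 (adjusted p = 0.0877) and Col1a1 at 0.55 (adjusted p = 0.469). Every MEKi and combination array had a higher muscle level than every other array, and every MEKi array a higher skin level. Treatment and marker level therefore cannot be told apart in this fit, and a lost call does not show which of them the change went with. With the animal series as a covariate all 9 combination rises and 7 of the 13 MEKi rises passed. In these fits 8.82% and 1.43% of all genes rose. Only 1 control tumor and no combination tumor was numbered from 10000 on. The combination fit was therefore the same as a fit to the 4 combination and 3 control tumors under 10000. Against the 1 control tumor from 10000 on, with no test, the MEKi mean was higher by 1.87 for Col1a1, 1.23 for Col3a1 and 2.13 for Col16a1, and Col11a1 differed by -2.06.

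Markers of other cell types were read beside the collagens. Over all genes 10.3% rose and 8.72% fell in combination tumors, and 10.7% rose and 10.4% fell in MEKi tumors. In CD40 Ab tumors 1.06% passed in either direction. Of 11 ductal tumor epithelial markers 3 rose in combination tumors and 3 rose and 1 (Sox9, -0.54) fell in MEKi tumors. Epcam was at 2.03 and 2.81. The list mean was 10.02 to 10.24 in combination and 10.14 to 10.58 in MEKi tumors. It was 9.53 to 10.12 in CD40 Ab and 9.58 to 10.02 in control tumors. Of 12 endothelial markers 2 rose and 1 fell in combination and 1 rose and 2 fell in MEKi tumors. Cldn5, a tight junction gene of vessels, was at -1.54 and -1.33. The endothelial list mean overlapped between groups, at 6.16 to 6.7 in combination and 6.19 to 7.06 in MEKi tumors. In CD40 Ab tumors it was 6.47 to 7.06 and in control tumors 6.34 to 6.52. Of 9 adipocyte markers 1 rose in combination (Lpl, 1.64) and 0 in MEKi tumors, and of 6 Schwann cell and nerve markers 2 rose in each, with Pmp22 at 0.97 and 0.99. Of 10 macrophage markers 6 rose and 1 fell in combination tumors, 0 rose and 1 fell in MEKi tumors and 3 rose in CD40 Ab tumors. Their part in the collagen values was not tested.

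The genes that process collagen were read from lists chosen by function. Their counts, and those of the lists after them, are to be read beside the same shares of all genes. Of 19 genes of collagen hydroxylation, glycosylation and folding 8 rose in combination tumors and 6 in MEKi tumors, and 0 fell. Serpinh1, the collagen chaperone HSP47, rose by 1.01 in combination (adjusted p = 0.000294) and by 2.07 in MEKi tumors (adjusted p = 0.000434), and fell by 1.06 in combination against MEKi tumors (adjusted p = 0.0284). The prolyl hydroxylases P3h3 and P4ha2 rose by 0.54 and 0.55 in combination, and P3h3 and P3h1 by 1.22 and 0.88 in MEKi tumors. The median change of the list was 0.11 in combination and 0.35 in MEKi tumors.

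Of 11 genes of procollagen cleavage and cross-linking 4 rose and 1 fell in combination and 4 rose in MEKi tumors. Lox, which oxidizes lysines for cross-links, rose by 1.40 (adjusted p = 0.000393) and 2.18 (adjusted p = 0.000497), and Loxl1, also counted with the fibroblast markers, by 0.81 and 1.69. Pcolce2, an enhancer of procollagen cleavage, fell by 1.03 in combination tumors (adjusted p = 0.00614). Of 11 collagen receptors and uptake genes 5 rose and 1 fell in combination and 4 rose and 1 fell in MEKi tumors. The receptors Itga1 and Adgrg1 rose by 1.36 and 1.55 in combination and by 1.17 and 1.68 in MEKi tumors, and Mrc2, which takes up collagen, by 0.81 and 1.90. Itga1 also rose in CD40 Ab tumors (0.85, adjusted p = 0.0313). Ddr2, a receptor kinase for fibrillar collagen, rose in MEKi tumors (1.14, adjusted p = 0.00769) and had an interaction of -1.54 (adjusted p = 0.00672).

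Of 14 collagen degradation genes 5 rose in combination and 7 rose and 1 fell in MEKi tumors. Mmp7, a matrix protease of epithelium, rose by 4.05 in combination (adjusted p = 6.32e-06) and by 1.5 in MEKi tumors (adjusted p = 0.00388), and was 2.55 higher in combination than in MEKi tumors (adjusted p = 0.00158). Mmp2, a gelatinase of stromal cells, rose by 1.05 and 2.59, Ctsk, a collagen-cleaving cathepsin, by 0.57 and 2.27, and in combination against MEKi tumors these fell by 1.54 and 1.70. Mmp9 rose by 2.23 in combination tumors (adjusted p = 0.023). The protease inhibitor Timp3 rose by 1.64 and 1.81, and Mmp13, a collagenase, fell by 0.68 in MEKi tumors (adjusted p = 0.0219).

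Of 18 other basement membrane components 4 rose and 2 fell in combination and 4 rose in MEKi tumors, beside type IV chains that passed in neither. Nid1, which links laminin to type IV collagen, rose by 0.80 and 1.46, and the laminin chain Lama4 by 0.57 and 1.17. Lama3, an epithelial laminin chain, rose by 2.05 in combination tumors (adjusted p = 0.00525). Lama2, the muscle laminin chain, fell by 0.65 in combination and by 0.88 in CD40 Ab tumors and rose by 0.97 in MEKi tumors. Of 16 TGF-beta and fibrogenic regulators 9 rose and 2 fell in combination and 7 rose and 4 fell in MEKi tumors. Pdgfd, a growth factor for fibroblasts, rose by 1.97 and 3.48 and Tgfb2 by 1.47 and 1.36, while Tgfb1 fell by 0.36 and 0.52 and Pdgfc by 0.59 and 1.09. Tgfbi, a TGF-beta induced matrix gene, rose by 0.87 in CD40 Ab tumors (adjusted p = 0.0207), where no collagen chain gene passed.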

How the data were processed

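Whole tumor pieces were profiled on 15 Affymetrix mouse arrays labeled with a 3' IVT kit. The log2 signal of each probe set was deposited after the authors had applied RMA (version not given in the sources used here). The highest correlation between 2 arrays was 0.9971, so no array repeated another. Of 45101 probe sets 64 controls were left out and 45037 tested. Probe sets with several symbols (932) or none (9160) named no gene.

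Each comparison was a limma fit (version 3.58.1, R 4.3.3, lmFit and eBayes, two-sided) to the arrays of its 2 groups, adjusted by Benjamini-Hochberg over all 45037 probe sets, with a threshold of 0.05. The interaction used all 15 arrays. The fits were tested on simulated data. The number of arrays limits the precision. Array medians were 5.16 to 5.24.

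Members and lists were chosen with earlier results of these data known. Values in every array were given by a written rule for types I, III and IV and for the member of each class with the smallest adjusted p in a comparison, whether or not it passed. Those of Col11a1, Col12a1 and Col7a1 were added after values were seen. Of each list, up to 3 passing genes per direction and comparison, those with the largest changes, could be named. Alternatives covered normalization, model, filters, probe set choice, thresholds, replicate number, animal series, skin and muscle levels and left-out arrays. Sample notes speak of more mice than arrays in the MEKi group, and whether an array was left out is not known.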

Additional observations from a re-analysis of the deposited data

Results flagged for a closer look

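In 7 of 126 gene and group sets of 4 arrays, 1 array stood far from the other 3, at a rate that chance gives in about 1 of 20 sets. The first CD40 Ab array was high for Col3a1 (12.69, others 11.79 to 11.93) and Col5a1 (10.38, others 9.07 to 9.20), and it had the highest fibroblast marker level of its group (9.12). The third CD40 Ab array was high for Col17a1 (4.86, others 2.95 to 3.19) and had the highest skin marker level of its group (5.64). The second CD40 Ab array was low for Col6a5 (2.65, others 2.83 to 2.86). The fourth control array was low for Col5a3 (7.93, others 8.54 to 8.64). Col9a2 was high in the fourth combination array (3.94, others 3.87 to 3.88) and the third control array (4.02, others 3.85 to 3.87).

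The effect of CD40 Ab differed with and without MEKi for 4 members in the interaction test. The difference of effects was 2.27 for Col11a1, -1.48 for Col24a1, -1.37 for Col16a1 and -2.68 for Col17a1 (log2). When each of the 15 arrays was left out, the call was lost 11 times for Col24a1, 10 times for Col11a1, 4 times for Col17a1 and 0 times for Col16a1.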

How the results depend on the processing

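Over 881 pairs of a passing gene and an alternative, 1 changed sign: Col5a3 in MEKi against control tumors was 0.04 with the skin and muscle covariates. With these covariates the combination had 0 rises and 0 falls against control, MEKi had 4 rises and 0 falls, combination against MEKi had 1 fall, combination against CD40 Ab had 0 rises, and the interaction had 0 rises and 1 fall. With the animal series as a covariate the MEKi counts were 7 and 0, the combination falls 2, the rises against CD40 Ab 2 and the interaction 0 up and 1 down. Within the lower series, which for combination against control is the same fit, the combination falls were 2 and the rises against CD40 Ab 1. The series could not be fitted in combination against MEKi.

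At an adjusted p of 0.01 the falls were 0 in combination, 1 in MEKi and 1 in combination against MEKi, the rises against CD40 Ab 1, and the interaction 0 up and 1 down. With a 2-fold minimum the combination had 3 rises and 0 falls, MEKi 1 fall, and combination against CD40 Ab 4 rises. In 1 fit of all 15 arrays the combination had 0 falls, and combination against MEKi 1 rise and 9 falls. The mean over probe sets gave 9 falls there, leaving out dim probe sets gave 2 combination falls and 1 interaction fall, and leaving out _x_, _s_ and _a_ probe sets 1 interaction fall.

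Replicate numbers named different animals and did not pair arrays (correlations of 21 same-number pairs -0.28 to 0.21, 9 over 0.1, 6 of 15 arrays nearest to their own number). With the replicate block, combination against MEKi had 2 falls and combination against CD40 Ab 4 rises.

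Leaving out 1 array gave 9 to 10 rises and 0 to 2 falls in combination, 11 to 16 and 1 to 4 in MEKi, 0 to 0 and 0 to 1 in CD40 Ab, 0 to 2 and 1 to 6 in combination against MEKi, 4 to 11 and 0 to 0 in combination against CD40 Ab, and 0 to 2 and 1 to 3 in the interaction. The extremes included 2 rises in combination against MEKi without the first MEKi array and 11 rises against CD40 Ab without the first CD40 Ab array. Of 42 gene calls 27 were kept under every left-out array. With 3 or 4 arrays a group, and 17 members under 6 in every group, small changes of dim genes could not be resolved.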
